A study of Mus musculus with 11 samples.

Results

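The 35 genes described here encode the enzymes of cholesterol and fatty acid synthesis, the proteins that control SREBP (the sterol regulatory element-binding transcription factors) and carriers of sterols. They were chosen by their function, as a list of mouse symbols, and each matched 1 Ensembl identifier of the 51912 genes counted. All 35 passed the filter on low counts that left 15703 genes for testing. RNA-seq was performed on lineage-negative bone marrow cells of C57BL/6 mice, taken from donors of 6 to 12 weeks and transduced with 2 retroviral vectors. The MIG vector is marked by GFP and is active from transduction. The idsRed vector becomes active only after Cre recombination, which 4-hydroxytamoxifen (4-OHT) triggers in marrow that carries Rosa26 ERT2-Cre. CSF3R-only cells (n = 4) carried CSF3R T618I, an activating mutation of the receptor for granulocyte colony-stimulating factor, in MIG and an empty idsRed vector. CSF3R-first cells (n = 3) carried CSF3R T618I in MIG and CEBPA V314VW, a mutation of a myeloid transcription factor, in idsRed. CEBPA-first cells (n = 4) carried CEBPA V314VW in MIG and CSF3R T618I in idsRed. Cells positive for both markers were sorted, and all 3 groups then received 500 nM 4-OHT for 48 h in IMDM with 20% serum and no added cytokine. Every group therefore carried CSF3R T618I, and no group without it is part of the series. CEBPA-first and CSF3R-only differed both in CEBPA V314VW and in the vector that carried CSF3R T618I, so these cannot be told apart in that comparison. Between CEBPA-first and CSF3R-first both mutations changed vector, so order and vector cannot be told apart there either. The 3 comparisons ask whether transcripts of lipid synthesis changed when CEBPA V314VW was added, and whether they changed with the order of the mutations.

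Cells make cholesterol from acetyl-CoA through mevalonate and farnesyl diphosphate, then squalene and lanosterol, and they make long fatty acids from the same acetyl-CoA. SREBP precursors lie in the membrane of the endoplasmic reticulum bound to SCAP. When sterols are plentiful, INSIG proteins hold this complex in place, and when sterols are scarce, SCAP carries it to the Golgi, where proteases release the active factor. SREBP2 acts mainly on cholesterol genes and SREBP1 mainly on fatty acid genes, while liver X receptors (LXR), which bind oxysterols, switch on the cholesterol exporters ABCA1 and ABCG1. Dividing cells need sterols and fatty acids for new membranes, and macrophages are known for high cholesterol efflux.

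Total counts per library lay between 47905747 and 72268346, and the members were counted with between 121 (Scd1) and 47011 (Scd2) reads per library. Levels are given as CPM (counts scaled to the library's total) after TMM normalization, as mean ± SD over the libraries of a group. At these depths, 3 counts, the upper limit that a count of 0 allows, correspond to 0.0383 to 0.0648 CPM, for counting error only. The cells were sorted as lineage-negative before the 48 h of culture, so the sort does not describe them as sequenced. After that culture, 12 markers of maturing neutrophils summed to 27117 to 33293 CPM in CSF3R-only cells, 14754 to 25672 in CSF3R-first cells and 6509.6 to 8679 in CEBPA-first cells. Within CSF3R-first, library A lay nearest to CSF3R-only, with 25672 CPM of neutrophil markers against 14754 in B and 17768 in C. The lymphoid markers Cd3e and Cd8a were listed at 0 in all 11 libraries. In bulk RNA, fewer cells of a type and less RNA per cell cannot be told apart, for the members as well as for these markers. The labels do not say that replicates came from separate animals or cultures, so p-values measure only the spread between these libraries, which may be technical.

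In CEBPA-first against CSF3R-only, 18 of the 35 members rose and 5 fell at an adjusted p under 0.05 (edgeR's quasi-likelihood test, with Benjamini and Hochberg's adjustment over all genes tested). Among all genes tested, 35.4% rose and 36.6% fell in that comparison. The 3 members that at least doubled were Scap, the sterol sensor that escorts SREBP, Hmgcs1, the enzyme that makes HMG-CoA, and Fasn, the fatty acid synthase (background of such rises, 8.07%). The 2 that fell at least as far were the cholesterol exporters Abca1 and Abcg1 (background of such falls, 19.0%). The levels of 23 members did not overlap between the groups, against 68.7% of all genes. The median log2 fold change was 0.14 over the members and 0.00 over all genes.

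In CSF3R-first against CSF3R-only, 13 members rose and 3 fell, where 21.6% of all genes rose and 21.1% fell. Fdps, which makes farnesyl diphosphate, was the single member past a doubling (background 2.13%), and no member fell that far (background 4.53%). The groups did not overlap for 15 members, against 42.1% of all genes. The median log2 fold change was 0.14 over the members and -0.02 over all genes. The 3 falls of this comparison, Abca1, Abcg1 and Fads2, rested on single libraries: the count of falls was 1 without CSF3R-only B or D or CSF3R-first C, and 0 without CSF3R-first B. Of the 16 calls, 11 held whichever library was left out. With 3385 genes higher and 3318 lower in all, the split moved under total count scaling to 4324 and 2658 (61.9% of calls higher), and that of the members to 19 and 2.

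In CEBPA-first against CSF3R-first, which compares the orders of the mutations, 12 members rose and 8 fell, where 24.0% of all genes rose and 24.3% fell. No member rose past a doubling (background 2.57%), and Abca1 alone fell that far (background 10.3%). The groups did not overlap for 16 members, against 52.2% of all genes. The median log2 fold change was 0.03 over the members and 0.00 over all genes. Calls of this comparison depended on single libraries: 8 of the 20 held whichever library was left out. The 12 rises became 6 without CEBPA-first A, 5 without CSF3R-first A and 6 without CSF3R-first C. The 8 falls became 5 without CEBPA-first B, 5 without CEBPA-first D, 4 without CSF3R-first A and 5 without CSF3R-first B. The 8 calls that held were Fdps, Fdft1, Msmo1, Scap, Abca1, Fasn, Scd2 and Fads1. The 3 comparisons share libraries pairwise, so their values are set side by side and were not correlated with each other.

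**Figure D1:**
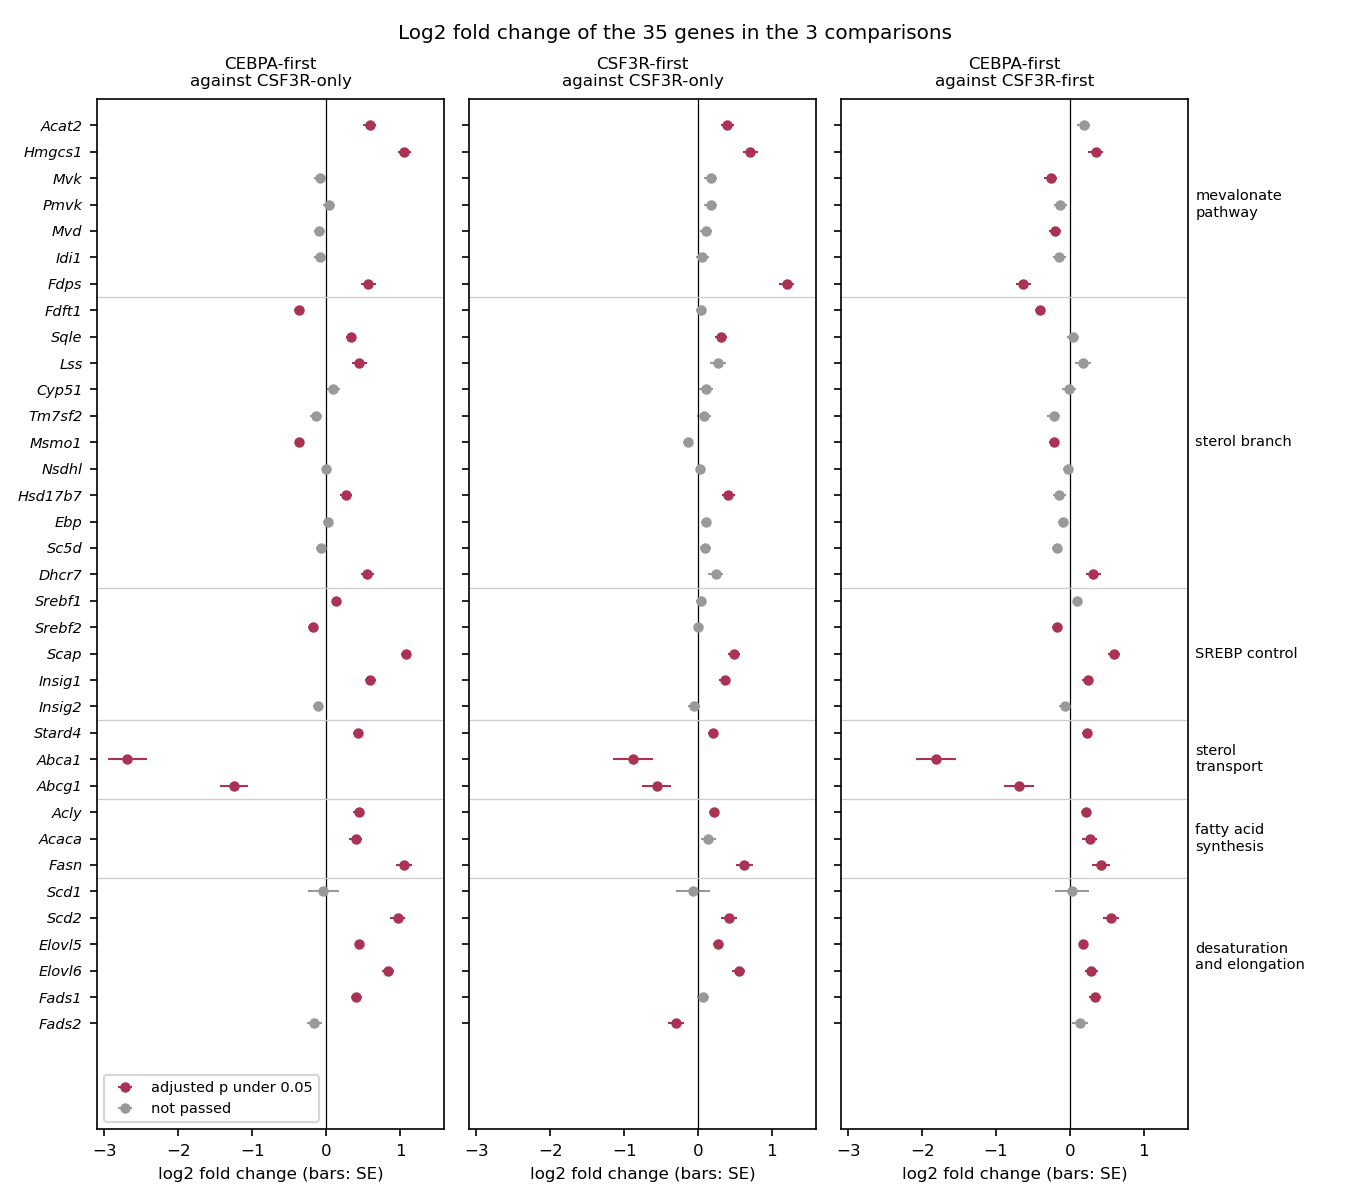
Log2 fold change of each of the 35 members (points, with bars of 1 SE) in the 3 comparisons, one panel each, ordered by role. Red points passed an adjusted p under 0.05 (18 up and 5 down in the left panel, 13 and 3 in the middle, 12 and 8 on the right). Abca1 lies farthest left in every panel.

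RefSeq promoter sequences of GRCm38.p6 (250 bases before to 50 after the annotated start) were matched to 27 of the 35 members. Stard4, Scd2, Abcg1, Fads1, Fdft1, Sqle, Scd1 and Fdps had no entry. Shown here are the stretches upstream of the start that hold motif matches in 3 of the members that moved past a doubling, Hmgcs1, Fasn and Abca1, and, for contrast, that of Idi1, which passed in no comparison. Capitals mark matches, on either strand, to a sterol regulatory element (SRE, TCACNCCAC) or CCAAT box (CCAAT) in Hmgcs1, to an LXR-type repeat (DR4, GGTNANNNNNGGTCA) or CCAAT box in Fasn, to a DR4 or E-box (CACGTG) in Abca1, and to a CCAAT box in Idi1. They lie at chr13:119690104-119690350 on the + strand, chr11:120824548-120824782 on the - strand, chr4:53159896-53160052 on the - strand and chr13:8885551-8885605 on the + strand.
Hmgcs1: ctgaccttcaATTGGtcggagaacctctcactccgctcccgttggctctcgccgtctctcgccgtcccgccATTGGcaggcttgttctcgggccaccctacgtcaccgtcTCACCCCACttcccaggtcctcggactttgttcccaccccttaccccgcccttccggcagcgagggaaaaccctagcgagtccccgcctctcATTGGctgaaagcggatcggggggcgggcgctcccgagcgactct
Fasn: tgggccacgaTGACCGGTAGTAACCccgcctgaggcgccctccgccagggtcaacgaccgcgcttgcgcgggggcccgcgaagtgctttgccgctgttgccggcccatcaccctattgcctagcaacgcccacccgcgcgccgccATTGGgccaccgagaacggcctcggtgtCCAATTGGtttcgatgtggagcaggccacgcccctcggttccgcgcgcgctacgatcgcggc
Abca1: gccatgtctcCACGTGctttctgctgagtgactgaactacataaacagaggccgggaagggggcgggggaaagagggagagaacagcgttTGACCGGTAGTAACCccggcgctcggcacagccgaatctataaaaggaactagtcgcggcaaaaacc
Idi1: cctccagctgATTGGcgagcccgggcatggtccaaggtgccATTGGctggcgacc
The SRE letters of Hmgcs1 lie 137 to 129 bases before the start and were in no other member's window, against 1.24% of all 32851 promoters. DR4 letters were in 3 members (Abca1, Fasn and Srebf1) and in 0.207% of all promoters. The 15 bases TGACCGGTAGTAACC were the same in Fasn, whose transcripts rose, and in Abca1, whose transcripts fell. CCAAT letters were in 21 of the 27 members, or 62.9% of their 35 promoter entries, against 37.4% of all promoters. In Fasn 2 of these matches overlap on opposite strands (CCAATTGG). Of the 21 members with CCAAT letters, 9 rose, 2 fell and 10 did not pass in CEBPA-first against CSF3R-only, and of the 6 without, 4 rose, 1 fell and 1 did not pass, beside 35.4% of all genes higher and 36.6% lower. The share of members with these letters that rose was near that of all genes, and the share that fell was below that of all genes. The E-box was in 7 members, or 22.9% of their entries, against 7.15% of all promoters. The GC box (GGGCGG) was in 22 members, or 74.3% of their entries, against 35.7% of all promoters. A match describes letters in this window and is not a measured binding site.

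The first 7 members act on the route from acetyl-CoA to farnesyl diphosphate, and not every step of that route has a member among them. Of them Acat2, Hmgcs1 and Fdps rose in both CEBPA-first and CSF3R-first against CSF3R-only, and Mvk, Pmvk, Mvd and Idi1 passed in neither comparison. Over all genes 35.4% were higher in the first comparison, a share near that of these 7 members, and 21.6% in the second. Hmgcs1 (ENSMUSG00000093930, chr13:119690379-119708260, + strand, GRCm38) condenses acetyl-CoA with acetoacetyl-CoA. Its levels in CSF3R-only were 169.6, 179, 176 and 183 CPM (A to D), in CSF3R-first 259.9, 339 and 269.6 CPM, and in CEBPA-first 404, 399, 347 and 327 CPM. Every library with CEBPA V314VW was above every CSF3R-only library, and CSF3R-first B lay within the range of CEBPA-first. Hmgcs1 rose by a log2 fold change of 1.06 (SE 0.09, edgeR adjusted p = 4.6e-07), or 2.09-fold, in CEBPA-first and by 0.71 (SE 0.10, edgeR adjusted p = 2.1e-04) in CSF3R-first, each against CSF3R-only. Between the orders it was higher in CEBPA-first by 0.35 (edgeR adjusted p = 0.012), a call lost without CSF3R-first C (0.29, adjusted p = 0.064). Another gene shares near-identical sequence over 16.2% of the Hmgcs1 transcript, so a part of its reads is uncertain.

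Fdps (ENSMUSG00000059743, chr3:89093588-89101959, - strand) makes farnesyl diphosphate, the last compound shared by sterols and by the other isoprenoids. It stood at 18.7, 17.7, 17.4 and 18.4 CPM in CSF3R-only cells, at 45.5, 41.9 and 37.3 CPM in CSF3R-first cells and at 32.1, 23.6, 27.5 and 24.5 CPM in CEBPA-first cells. The 3 groups were separate, with CSF3R-first highest and CEBPA-first between the others. Fdps rose by 1.20 (SE 0.10, edgeR adjusted p = 5.2e-06) in CSF3R-first and by 0.57 (SE 0.10, edgeR adjusted p = 1.2e-04) in CEBPA-first against CSF3R-only. Between the orders it was lower in CEBPA-first, with a log2 fold change of -0.63 (edgeR adjusted p = 3.7e-04). Its reads are uncertain, because 5 other genes match 16.7% of its transcript and only 73.3% of its exon bases lie outside other genes. Acat2, which makes acetoacetyl-CoA in the cytosol, was at 45.9 ± 4.32 CPM in CSF3R-only cells, 60.4 ± 7.80 in CSF3R-first cells and 69.1 ± 3.51 in CEBPA-first cells. It rose by 0.59 in CEBPA-first (edgeR adjusted p = 3.8e-05) and by 0.40 in CSF3R-first (edgeR adjusted p = 0.0046), but 65.6% of its transcript matches Acat3 or Tcp1.

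Of the members that act before farnesyl diphosphate, Mvk, Mvd, Pmvk and Idi1 differed little between the groups. Mvk (mevalonate kinase) was at 21.5 ± 2.32 CPM in CSF3R-only cells, 24.2 ± 2.32 in CSF3R-first cells and 20.3 ± 0.763 in CEBPA-first cells. Between the orders its log2 fold change was -0.26 (edgeR adjusted p = 0.035), a call lost without CEBPA-first B (-0.23), C (-0.26) or D (-0.25) or CSF3R-first A (-0.27) or B (-0.17), with total count scaling (-0.21), with no filter on low counts (-0.23) and with the replicate block (-0.23, adjusted p = 0.059). Mvd, which decarboxylates mevalonate diphosphate, was at 62.7 ± 3.34, 67.8 ± 6.66 and 58.9 ± 3.68 CPM, with the groups listed as for Mvk. Its call between the orders (-0.20, edgeR adjusted p = 0.041) was lost without CEBPA-first B (-0.18), C (-0.21) or D (-0.18) or CSF3R-first A (-0.12) or B (-0.22), with DESeq2 (-0.20, adjusted p = 0.062), with total count scaling (-0.15) and with no filter on low counts (-0.18). Pmvk (phosphomevalonate kinase) was at 28.9 ± 3.63, 32.5 ± 1.93 and 29.7 ± 1.34 CPM. Idi1, the isomerase whose promoter is shown above, was at 31.8 ± 1.58, 33.1 ± 3.53 and 30.1 ± 2.42 CPM, with 33.3% of its transcript matched in other genes. Neither Pmvk nor Idi1 passed in any of the 3 comparisons, though Pmvk passed in CSF3R-first against CSF3R-only under total count scaling and without CSF3R-only B.

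The sterol branch holds 11 members, from squalene synthase to the last reductase. In CEBPA-first against CSF3R-only 4 rose (Sqle, Lss, Hsd17b7 and Dhcr7), 2 fell (Fdft1 and Msmo1) and 5 did not pass, and in CSF3R-first against CSF3R-only Sqle and Hsd17b7 rose and 9 did not pass. In the first of these comparisons 35.4% of all genes rose and 36.6% fell, and in the second 21.6% rose and 21.1% fell. In the first, the share of the branch that rose was near that of all genes, and the share that fell was below it. Fdft1, the squalene synthase that commits farnesyl diphosphate to sterols, was at 67.9, 74.2, 68.8 and 70.1 CPM in CSF3R-only cells, 71.7, 77.2 and 67.6 CPM in CSF3R-first cells and 57.5, 53.0, 54.8 and 52.7 CPM in CEBPA-first cells. All 4 CEBPA-first libraries were below all 7 others. It fell by 0.37 on the log2 scale against CSF3R-only (edgeR adjusted p = 7.5e-05) and by 0.41 against CSF3R-first (edgeR adjusted p = 2.6e-04), although 54.7% of its transcript matches Gm6781 or Ctsb. Msmo1, a C4-methyl oxidase, was at 215 ± 7.91 CPM in CSF3R-only cells, 195 ± 5.43 in CSF3R-first cells and 168 ± 8.53 in CEBPA-first cells. It fell by 0.36 in CEBPA-first against CSF3R-only (edgeR adjusted p = 6.6e-05) and by 0.22 against CSF3R-first (edgeR adjusted p = 0.01), the latter call lost with no filter on low counts (-0.19, adjusted p = 0.078). Against CSF3R-only, the enzyme that makes squalene was lower in CEBPA-first, and the next enzymes of the route, Sqle and Lss, were higher. Neither Sqle nor Lss passed between the orders.

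Sqle, the squalene epoxidase and a rate-limiting enzyme of the branch, was at 157 ± 7.02 CPM in CSF3R-only cells, 194 ± 23.6 in CSF3R-first cells and 199 ± 9.20 in CEBPA-first cells. It rose by 0.34 in CEBPA-first (edgeR adjusted p = 9.1e-04) and by 0.31 in CSF3R-first (edgeR adjusted p = 0.0078), each against CSF3R-only. Lss, which closes the rings to lanosterol, was at 60.5 ± 5.90, 73.0 ± 13.2 and 82.5 ± 1.11 CPM, with the groups listed as for Sqle. It rose by 0.45 in CEBPA-first (edgeR adjusted p = 0.0012). Its value of 0.27 in CSF3R-first against CSF3R-only did not pass (edgeR adjusted p = 0.058). That value passed with DESeq2, total count scaling, no filter or the replicate block, and without CSF3R-first A. Hsd17b7, a 3-keto reductase, was at 24.8 ± 1.24, 33.0 ± 4.82 and 29.9 ± 1.65 CPM. Its rise was 0.41 in CSF3R-first (edgeR adjusted p = 0.0032) and 0.27 in CEBPA-first (edgeR adjusted p = 0.011). Dhcr7, which makes cholesterol or desmosterol from the 7-dehydro forms, was at 37.5 ± 3.79, 44.3 ± 6.50 and 55.1 ± 2.85 CPM and rose by 0.56 in CEBPA-first against CSF3R-only (edgeR adjusted p = 1.5e-04). Between the orders Dhcr7 was higher in CEBPA-first by 0.32 (edgeR adjusted p = 0.023), a call lost without CEBPA-first A (0.29) or CSF3R-first A (0.20).

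The other 5 enzymes of the branch passed in no comparison. With another scaling or filter or fewer libraries, Ebp, Sc5d and Tm7sf2 passed in at least 1 comparison each. Cyp51, the lanosterol demethylase, was at 191 ± 15.6 CPM in CSF3R-only cells, 206 ± 27.3 in CSF3R-first cells and 205 ± 14.8 in CEBPA-first cells. Tm7sf2, a sterol C14 reductase, was at 10.7 ± 0.309, 11.3 ± 0.458 and 9.67 ± 0.935 CPM. Nsdhl, a C4 decarboxylase, was at 35.3 ± 2.21, 36.0 ± 1.41 and 35.2 ± 1.15 CPM, and its 95% interval of the log2 fold change in CEBPA-first against CSF3R-only ran from -0.14 to 0.14. The isomerase Ebp was at 66.7 ± 5.70, 72.2 ± 2.89 and 67.7 ± 2.44 CPM, and the desaturase Sc5d was at 105 ± 5.37, 113 ± 6.27 and 100.3 ± 5.69 CPM. Levels per kb of exon set Cyp51 (43.3 CPM per kb) and Hmgcs1 (38.5 CPM per kb) at the head of the 18 cholesterol enzymes in CSF3R-only and Tm7sf2 (2.43 CPM per kb) at the foot. In CEBPA-first the head of this order was Hmgcs1, at 80.4 CPM per kb, followed by Cyp51 at 46.4.

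Of the 5 genes that control SREBP, Scap and Insig1 rose in all 3 comparisons, while the transcripts of the factors themselves moved little. Scap (ENSMUSG00000032485, chr9:110333288-110384950, + strand) was at 46.3, 45.8, 50.7 and 46.3 CPM in CSF3R-only cells, 57.8, 70.9 and 69.7 CPM in CSF3R-first cells and 95.5, 107, 96.8 and 100.3 CPM in CEBPA-first cells. The 3 groups were separate, in the order CSF3R-only, CSF3R-first, CEBPA-first. Scap rose by 1.08 (SE 0.07, edgeR adjusted p = 4.6e-08), or 2.12-fold, in CEBPA-first and by 0.49 (SE 0.08, edgeR adjusted p = 4.8e-04) in CSF3R-first against CSF3R-only. It was higher in CEBPA-first than in CSF3R-first by 0.60 (edgeR adjusted p = 7.5e-05). A near-identical stretch of 5830462I19Rik covers 18.9% of its transcript. Insig1, the retention protein that is itself an SREBP target, was at 63.1, 68.6, 67.5 and 67.2 CPM in CSF3R-only cells, 80.1, 95.1 and 82.1 CPM in CSF3R-first cells and 109, 105, 99.8 and 90.5 CPM in CEBPA-first cells. All libraries with CEBPA V314VW were above CSF3R-only, and CSF3R-first B overlapped CEBPA-first. Insig1 rose by 0.60 in CEBPA-first (edgeR adjusted p = 6.7e-06) and by 0.36 in CSF3R-first (edgeR adjusted p = 0.0027) against CSF3R-only. Its call between the orders (0.24, edgeR adjusted p = 0.023) was lost without CEBPA-first A (0.20) or B (0.22) or CSF3R-first A (0.20) or C (0.20), and with only the compared groups (0.21).

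Insig2, the related retention protein that is not an SREBP target, was at 29.2, 29.7, 27.2 and 29.9 CPM in CSF3R-only cells, 31.5, 26.4 and 26.4 CPM in CSF3R-first cells and 28.3, 26.8, 27.3 and 25.2 CPM in CEBPA-first cells. The groups overlapped in every comparison. Its log2 fold change was -0.11 in CEBPA-first against CSF3R-only (95% interval -0.27 to 0.06, edgeR adjusted p = 0.19). The sign of this value turned under scaling by total counts alone (0.02), which moved the median of all genes by 0.13 in this comparison. Srebf2, which encodes SREBP2, was at 340.3, 343, 359 and 359 CPM in CSF3R-only cells, 356, 357 and 338 CPM in CSF3R-first cells and 322, 306, 325 and 288 CPM in CEBPA-first cells. All CEBPA-first libraries were below all others. Its log2 fold change was -0.18 against CSF3R-only (edgeR adjusted p = 0.014) and -0.18 against CSF3R-first (edgeR adjusted p = 0.031). The first call was lost without CEBPA-first D (-0.14, adjusted p = 0.05), under total count scaling (-0.04) and without a filter (-0.10). The second was lost without CEBPA-first B (-0.17) or D (-0.14) and without CSF3R-first A (-0.16) or B (-0.16). It was also lost with the replicate block (-0.17, adjusted p = 0.056), under total count scaling (-0.13) and without a filter (-0.15). In CSF3R-first against CSF3R-only the log2 fold change of Srebf2 was 0.00 (95% interval -0.14 to 0.14).

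Srebf1, which encodes SREBP1 and is also an LXR target, was at 131, 135, 139 and 140.2 CPM in CSF3R-only cells, 147, 129.8 and 145 CPM in CSF3R-first cells and 151, 153, 158 and 141 CPM in CEBPA-first cells. CEBPA-first lay above CSF3R-only with no overlap, though CEBPA-first D was close to CSF3R-only D. The call of this log2 fold change of 0.14 (95% interval 0.01 to 0.28, edgeR adjusted p = 0.041) was lost without CSF3R-only A (0.12), B (0.14), C (0.15) or D (0.15) and without CEBPA-first A (0.14), B (0.14) or C (0.12). It was also lost with the filter of 10 counts in every library (0.11). Per kb of exon, Srebf2 was the more abundant of the pair in each group, at 48.7, 48.8 and 43.2 CPM per kb in CSF3R-only, then CSF3R-first, then CEBPA-first, against 24.2, 25.0 and 26.8 for Srebf1. The counts do not resolve the Srebf1 isoforms, and they measure transcripts and not the cleaved, active proteins.

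**Figure D2:**
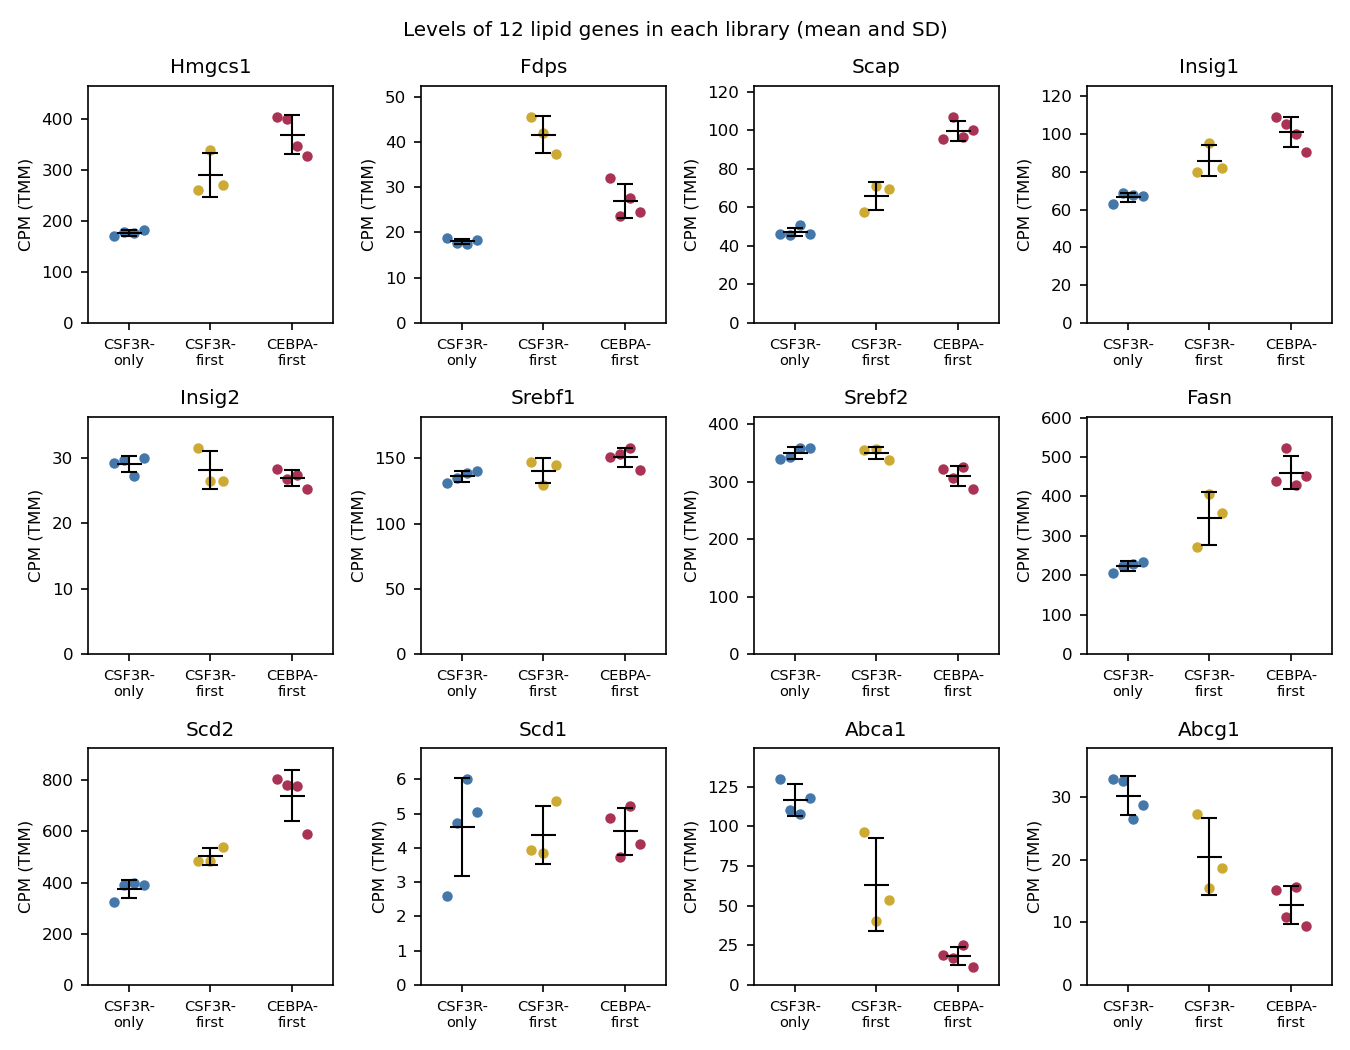
CPM (TMM-normalized, linear axes from 0) of 12 members in each library (points) of CSF3R-only (blue, n = 4), CSF3R-first (yellow, n = 3) and CEBPA-first (red, n = 4), with the mean and SD in black. Scap separates into 3 levels, Fdps is highest in CSF3R-first (37.3 to 45.5), Abca1 falls to 11.6 to 25.0 in CEBPA-first, and Insig2 and Scd1 overlap in all groups.

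The sterol carriers showed the steepest falls among the members. Abca1 (ENSMUSG00000015243, chr4:53030787-53159895, - strand), which passes cholesterol and phospholipid to lipid-poor apolipoproteins, was at 129.8, 110.2, 108 and 118 CPM in CSF3R-only cells, 96.2, 40.1 and 53.4 CPM in CSF3R-first cells and 18.9, 16.9, 25.0 and 11.6 CPM in CEBPA-first cells. The 3 groups did not overlap, and CSF3R-first A lay far above CSF3R-first B and C. Abca1 fell by 2.69 on the log2 scale (SE 0.26, edgeR adjusted p = 1.1e-06), 6.46-fold lower, in CEBPA-first against CSF3R-only, and by 1.81 (SE 0.27, edgeR adjusted p = 2.0e-04) against CSF3R-first. In CSF3R-first relative to CSF3R-only it was lower too, at a log2 fold change of -0.88 (SE 0.27, edgeR adjusted p = 0.018), a call lost without CSF3R-first B (-0.64, adjusted p = 0.08) or C (-0.76, adjusted p = 0.074). Abcg1 (ENSMUSG00000024030, chr17:31057675-31117988, + strand), which exports cholesterol to HDL, was at 32.9, 32.6, 26.5 and 28.8 CPM in CSF3R-only cells, 27.3, 15.5 and 18.6 CPM in CSF3R-first cells and 15.1, 10.8, 15.6 and 9.46 CPM in CEBPA-first cells. CEBPA-first was below CSF3R-only throughout, and CSF3R-first overlapped both. Abcg1 fell by 1.25 (SE 0.19, edgeR adjusted p = 4.6e-05), 2.37-fold lower, in CEBPA-first against CSF3R-only. Its call in CSF3R-first relative to CSF3R-only (-0.56, edgeR adjusted p = 0.037) was lost without CSF3R-only A (-0.52), B (-0.52) or D (-0.59) or CSF3R-first B (-0.40) or C (-0.48). Between the orders (-0.69, edgeR adjusted p = 0.013) it was lost without CSF3R-first A (-0.42).

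Markers of macrophages and neutrophils moved with the exporters. The 12 macrophage markers summed to 1842 to 2416 CPM in CSF3R-only cells, 859 to 1605 in CSF3R-first cells and 342 to 547 in CEBPA-first cells, none of them at 0 in a whole group, and 11 of 12 fell in CEBPA-first against CSF3R-only while 1 rose. All 12 neutrophil markers fell in that comparison, where 35.4% of all genes rose and 36.6% fell. In CSF3R-first A, the library with the highest Abca1 and Abcg1 of its group, the macrophage markers summed to 1605 CPM, against 859 in B and 922 in C. Their part in the fall of Abca1 and Abcg1 was not tested. Stard4, a soluble carrier that moves cholesterol between membranes and an SREBP target, went the other way and stood at 84.9 ± 3.32 CPM in CEBPA-first cells, 72.5 ± 5.62 in CSF3R-first cells and 63.2 ± 4.20 in CSF3R-only cells. It rose by 0.43 in CEBPA-first against CSF3R-only (edgeR adjusted p = 5.8e-05). Its call in CSF3R-first relative to CSF3R-only (0.20, edgeR adjusted p = 0.038) was lost without CSF3R-only A (0.15), B (0.20) or D (0.20) and without CSF3R-first B (0.13). The call was also lost with the replicate block (0.19, adjusted p = 0.054) and with only the compared groups (0.21). Between the orders (0.23, edgeR adjusted p = 0.018) it was lost without CEBPA-first A (0.20) or CSF3R-first A (0.20) or C (0.19).

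All 3 genes of fatty acid synthesis rose in CEBPA-first against both other groups, where 35.4% of all genes were higher relative to CSF3R-only and 24.0% relative to CSF3R-first. Fasn (ENSMUSG00000025153, chr11:120805846-120824547, - strand), the synthase that builds palmitate, was at 205, 223, 229 and 233 CPM in CSF3R-only cells, 271, 405 and 357 CPM in CSF3R-first cells and 438, 523, 428 and 453 CPM in CEBPA-first cells. The groups did not overlap, and CSF3R-first A was nearest to CSF3R-only. Fasn rose by 1.05 (SE 0.11, edgeR adjusted p = 2.0e-06), or 2.07-fold, in CEBPA-first and by 0.63 (SE 0.12, edgeR adjusted p = 0.0012) in CSF3R-first against CSF3R-only. It was higher in CEBPA-first than in CSF3R-first by 0.42 (edgeR adjusted p = 0.011). Acly, the ATP citrate lyase that supplies cytosolic acetyl-CoA to both pathways, was at 431 ± 7.96 CPM in CSF3R-only cells, 501 ± 17.2 in CSF3R-first cells and 584 ± 47.6 in CEBPA-first cells, and rose by 0.44 in CEBPA-first against CSF3R-only (edgeR adjusted p = 5.1e-05). Its call in CSF3R-first relative to CSF3R-only (0.22, edgeR adjusted p = 0.027) was lost without CSF3R-only A (0.21), C (0.20) or D (0.22, adjusted p = 0.05) or CSF3R-first B (0.19). Its call between the orders (0.22, edgeR adjusted p = 0.021) was lost without CEBPA-first A (0.20) or B (0.19) or CSF3R-first A (0.20) or C (0.22), and with only the compared groups (0.19). Acaca, the acetyl-CoA carboxylase that makes malonyl-CoA, was at 24.0 ± 1.50, 26.3 ± 3.55 and 31.7 ± 2.90 CPM and rose by 0.40 in CEBPA-first against CSF3R-only (edgeR adjusted p = 0.0015), with 64.3% of its transcript matched by Gm5182. Its call between the orders (0.27, edgeR adjusted p = 0.041) was lost without CEBPA-first A (0.28) or B (0.20) or CSF3R-first A (0.16) or C (0.31). It was also lost with the filter of 10 counts (0.24) and with only the compared groups (0.23).

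Of the 6 desaturases and elongases, Scd2, Elovl5 and Elovl6 rose in all 3 comparisons, Fads1 rose in CEBPA-first against both other groups, and Scd1 passed in none. Scd2 (ENSMUSG00000025203, chr19:44293674-44306864, + strand) and Scd1 (ENSMUSG00000037071, chr19:44394455-44407879, - strand) are neighbouring genes for stearoyl-CoA desaturases, which make oleate. Scd2 was at 325, 390.4, 400.1 and 389.8 CPM in CSF3R-only cells, 484, 483 and 539 CPM in CSF3R-first cells and 805, 781, 778 and 591 CPM in CEBPA-first cells. The groups did not overlap, with CEBPA-first D the lowest of its group. Scd2 rose by 0.97 (SE 0.10, edgeR adjusted p = 2.0e-06), or 1.96-fold, in CEBPA-first and by 0.42 (SE 0.11, edgeR adjusted p = 0.0084) in CSF3R-first against CSF3R-only. Between the orders it was higher in CEBPA-first by 0.56 (edgeR adjusted p = 0.0014). Scd1 was at 2.61, 4.73, 6.01 and 5.05 CPM in CSF3R-only cells, 3.94, 3.84 and 5.36 CPM in CSF3R-first cells and 4.86, 3.73, 5.22 and 4.11 CPM in CEBPA-first cells, with overlap throughout. Its log2 fold change in CEBPA-first against CSF3R-only was -0.04 (95% interval -0.54 to 0.45), with the sign turned under total count scaling (0.09). Per kb of exon, Scd2 stood at 68.9, 91.8 and 135 CPM per kb in CSF3R-only, then CSF3R-first, then CEBPA-first, and Scd1 at 0.940, 0.895 and 0.916.

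Elovl6, which lengthens palmitate to stearate, was at 26.6 ± 2.59 CPM in CSF3R-only cells, 38.8 ± 3.63 in CSF3R-first cells and 47.5 ± 2.05 in CEBPA-first cells. It rose by 0.84 (SE 0.08, edgeR adjusted p = 9.3e-07) in CEBPA-first and by 0.55 (SE 0.09, edgeR adjusted p = 4.4e-04) in CSF3R-first against CSF3R-only, with 13.5% of its transcript matched by another gene. Between the orders its call (0.29, edgeR adjusted p = 0.014) was lost without CSF3R-first A (0.22). Elovl5, which lengthens polyunsaturated fatty acids, was at 135 ± 6.45, 163 ± 8.85 and 184 ± 8.55 CPM and rose by 0.45 in CEBPA-first (edgeR adjusted p = 1.5e-05) and by 0.27 in CSF3R-first (edgeR adjusted p = 0.0045) against CSF3R-only. Its call between the orders (0.18, edgeR adjusted p = 0.037) was lost without CEBPA-first A (0.16) or B (0.15) or CSF3R-first A (0.18) or C (0.13). It was also lost without a filter (0.20) and with only the compared groups (0.14).

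Fads1 and Fads2, the delta-5 and delta-6 desaturases of polyunsaturated fatty acids, are neighbours on chromosome 19 and did not move together. Fads1 was at 90.2 ± 6.98 CPM in CSF3R-only cells, 94.4 ± 8.16 in CSF3R-first cells and 119.7 ± 6.11 in CEBPA-first cells. It rose by 0.41 in CEBPA-first against CSF3R-only (edgeR adjusted p = 2.1e-04) and by 0.34 against CSF3R-first (edgeR adjusted p = 0.0036). Fads2 was at 77.2 ± 9.27, 62.5 ± 10.3 and 69.0 ± 2.11 CPM. Its fall in CSF3R-first against CSF3R-only (-0.30, edgeR adjusted p = 0.04) was lost without CSF3R-only B (-0.28), C (-0.25) or D (-0.31) or CSF3R-first A (-0.18) or B (-0.32). It was also lost under total count scaling (-0.22), without a filter (-0.26) and with only the compared groups (-0.29).

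**Figure D3:**
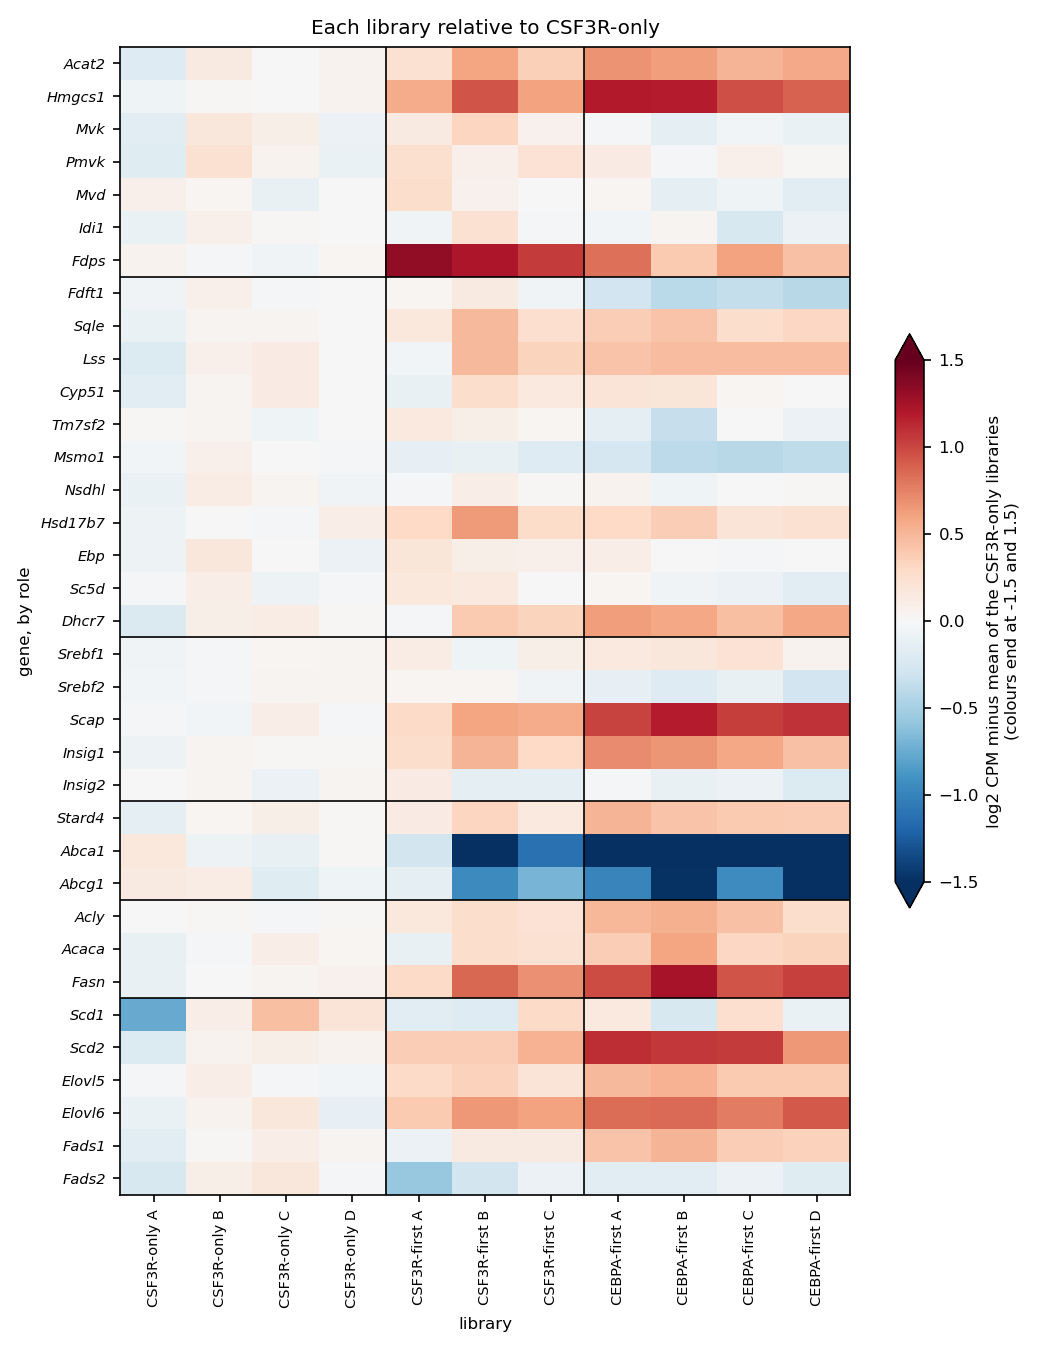
Each member (rows, grouped by role) in each of the 11 libraries (columns) as log2 CPM minus the mean log2 CPM of the 4 CSF3R-only libraries, with red above and blue below that mean and colours ending at -1.5 and 1.5. Abca1 and Abcg1 are blue in CEBPA-first, where Hmgcs1, Scap, Fasn and Scd2 are the darkest red rows, and Fdps is darkest in CSF3R-first.

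The cholesterol and fatty acid enzymes are set side by side here, beside the shares over all genes. Of the 18 cholesterol enzymes, 7 rose, 2 fell and 9 did not pass in CEBPA-first against CSF3R-only, with a median log2 fold change of 0.03, where 35.4% of all genes rose and 36.6% fell. The share of these enzymes that rose was near that of all genes, and the share that fell was below that of all genes. Of the 9 fatty acid enzymes, 7 rose, none fell and 2 did not pass (Scd1 and Fads2), with a median of 0.44. In CEBPA-first against CSF3R-first, 2 cholesterol enzymes rose and 5 fell (median -0.13), while 7 fatty acid enzymes rose and none fell (median 0.27), beside 24.0% of all genes higher and 24.3% lower. Without CSF3R-first A, the rises of Acly, Acaca, Elovl5, Elovl6 and Dhcr7 and the falls of Mvk and Mvd no longer passed. In CSF3R-first against CSF3R-only the medians were 0.14 and 0.22, with 5 rises and no fall among the 18, and 5 rises and 1 fall among the 9, beside 21.6% of all genes higher and 21.1% lower. Under total count scaling 6 further cholesterol enzymes rose in this comparison (Dhcr7, Ebp, Lss, Mvd, Pmvk and Sc5d). The difference between these classes was not tested.

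Summed over each library, the 18 cholesterol enzymes reached 1281 to 1424 CPM in CSF3R-only cells, 1506 to 1744 in CSF3R-first cells and 1533 to 1709 in CEBPA-first cells. The groups with CEBPA V314VW overlapped each other and lay above CSF3R-only. Without Hmgcs1 the sums were 1112 to 1245, 1246 to 1405 and 1203 to 1305 CPM, and the ranges of CSF3R-only and CEBPA-first overlapped. The 9 fatty acid enzymes reached 1285 to 1428 CPM in CSF3R-only cells, 1599 to 1814 in CSF3R-first cells and 2003 to 2405 in CEBPA-first cells, with no overlap. Without Fasn and Scd2 they reached 755 to 810.0, 845 to 926 and 959 to 1101 CPM and still did not overlap. The 12 markers of dividing cells separated the 3 groups in the same order as the fatty acid enzymes, at 2358 to 2811 CPM in CSF3R-only cells, 3519 to 4152 in CSF3R-first cells and 4620.4 to 5149 in CEBPA-first cells. All 12 markers rose in both groups with CEBPA V314VW against CSF3R-only, and 10 of 12 rose between the orders. Of all genes, 35.4% rose in CEBPA-first and 21.6% in CSF3R-first against CSF3R-only, and 24.0% between the orders. The part of these markers in the changes of the members was not tested.

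**Figure D4:**
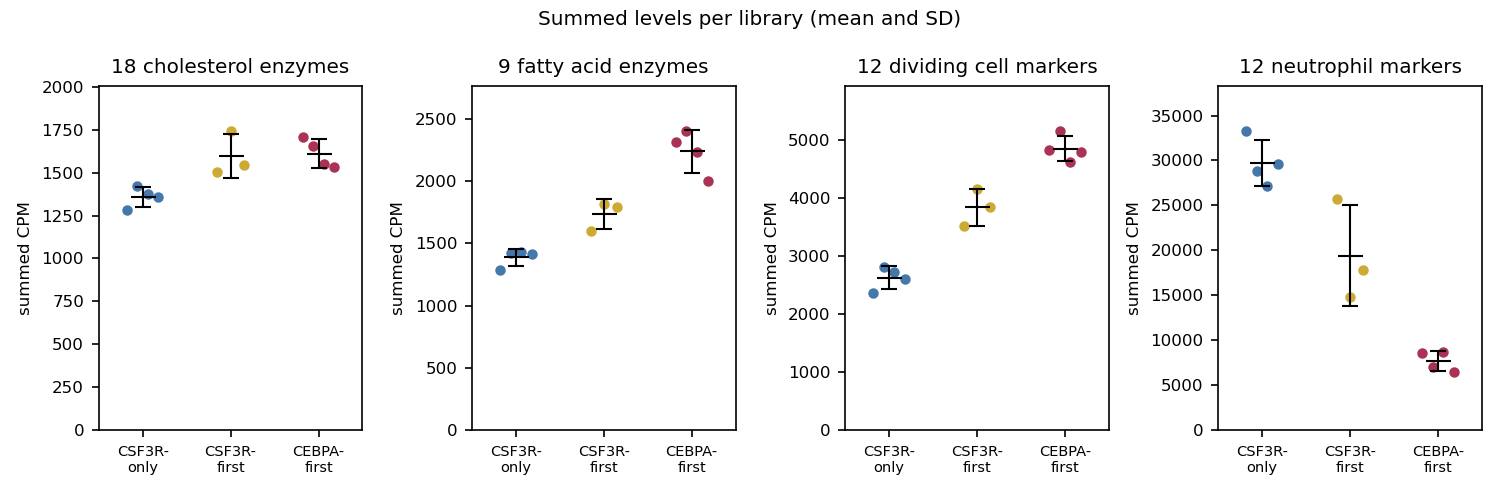
Summed CPM per library (points, linear axes from 0, mean and SD in black) of the 18 cholesterol enzymes, the 9 fatty acid enzymes, 12 markers of dividing cells and 12 markers of maturing neutrophils in the 3 groups. Cholesterol enzymes overlap between CSF3R-first and CEBPA-first, fatty acid enzymes and markers of dividing cells are lowest in CSF3R-only and highest in CEBPA-first, and neutrophil markers go the other way.

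Genes around these pathways were described from 5 further lists, with counts of calls to be read against the shares over all genes given above. Where 3 log2 fold changes follow a gene, they are those of CEBPA-first against CSF3R-only, CSF3R-first against CSF3R-only and CEBPA-first against CSF3R-first, and each passed edgeR's test. Of 8 genes for SREBP processing and INSIG turnover, 5 rose and 2 fell in CEBPA-first against CSF3R-only, 4 rose and 3 fell in CSF3R-first against CSF3R-only, and 5 rose and 2 fell between the orders. The counts of this and the following lists stand beside 35.4%, 21.6% and 24.0% of all genes higher and 36.6%, 21.1% and 24.3% lower in the 3 comparisons. The proteases that release SREBP rose in all 3 comparisons: Mbtps1 by 0.50, 0.18 and 0.31 and Mbtps2 by 0.53, 0.26 and 0.27 on the log2 scale. The ubiquitin ligase Rnf145 (-0.65, -0.25 and -0.40), which acts on sterol-controlled proteins of the endoplasmic reticulum, fell in all 3. The values of CSF3R-first against CSF3R-only were the least stable: the call of Mbtps1 was lost without CSF3R-only A (0.18), C (0.17) or D (0.18) or CSF3R-first B (0.14) or C (0.20), that of Mbtps2 without CSF3R-only D (0.24) or CSF3R-first B (0.21) and that of Rnf145 without CSF3R-only A (-0.22) or CSF3R-first B (-0.18) or C (-0.22). Between the orders Mbtps2 was lost without CSF3R-first C (0.23).

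Of 13 genes for LXR and sterol handling, 2 rose and 10 fell in CEBPA-first against CSF3R-only, 1 rose and 6 fell in CSF3R-first against CSF3R-only, and 1 rose and 6 fell between the orders. Nr1h3, the LXR alpha gene, was at 6.00 ± 0.957 CPM in CSF3R-only cells, 3.19 ± 1.16 in CSF3R-first cells and 1.59 ± 0.428 in CEBPA-first cells, with log2 fold changes of -1.93, -0.92 and -1.01. Lipa, the lysosomal acid lipase that frees cholesterol from its esters, fell from 239.9 ± 36.5 CPM in CSF3R-only through 132 ± 29.9 to 67.4 ± 7.27 (-1.83, -0.86 and -0.97). Nceh1, a neutral cholesterol ester hydrolase, rose from 101 ± 10.6 through 136 ± 11.1 to 248 ± 30.2 CPM (1.29, 0.43 and 0.86). Mylip, an LXR target that marks lipoprotein receptors for breakdown, had a log2 fold change of -0.59 in CSF3R-first against CSF3R-only (edgeR adjusted p = 0.0027). Macrophages express Nr1h3 and Lipa, so the macrophage marker sums given above stand beside these values too.

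Of 8 genes of the non-sterol isoprenoid branch, which uses farnesyl diphosphate for prenyl groups and coenzyme Q, 7 rose and none fell in CEBPA-first against CSF3R-only, 4 rose in CSF3R-first against CSF3R-only and 5 rose between the orders. Pdss1, which builds the coenzyme Q tail, rose by 1.05, 0.57 and 0.47, and Coq2, which attaches it, by 0.90, 0.50 and 0.40. The farnesyltransferase subunit Fntb rose by 0.83 in CEBPA-first and 0.53 in CSF3R-first against CSF3R-only. Pdss2, the partner of Pdss1, rose by 0.74, 0.42 and 0.32, and its call between the orders was lost without CSF3R-first C (0.27). Of 17 genes for fatty acid supply and other elongation, 8 rose and 6 fell in CEBPA-first against CSF3R-only, 3 rose and 6 fell in CSF3R-first against CSF3R-only, and 4 rose and 4 fell between the orders. Acacb, the carboxylase at the outer mitochondrial membrane, rose by 1.83, 1.20 and 0.62 from 1.43 ± 0.272 CPM in CSF3R-only. Elovl7 fell by 1.20, 0.53 and 0.66, and Acss2, which makes acetyl-CoA from acetate, fell by 1.07, 0.56 and 0.51. Me1, the malic enzyme that supplies NADPH, had a log2 fold change of -0.66 in CSF3R-first against CSF3R-only (edgeR adjusted p = 0.015), and Hacd2, a dehydratase of elongation, of -0.55 between the orders (edgeR adjusted p = 1.4e-04).

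Of 17 genes of fatty acid oxidation, 10 rose and 3 fell in CEBPA-first against CSF3R-only, 5 rose and 2 fell in CSF3R-first against CSF3R-only, and 6 rose and 2 fell between the orders. Hadh, a mitochondrial hydroxyacyl-CoA dehydrogenase, rose by 1.21, 0.46 and 0.74, and Etfa, the electron carrier for acyl-CoA dehydrogenases, by 1.05, 0.69 and 0.36. Slc25a20, the carnitine carrier of the inner mitochondrial membrane, fell by 0.88, 0.28 and 0.59, and its call in CSF3R-first relative to CSF3R-only was lost without CSF3R-only A (-0.23) or CSF3R-first B (-0.24) or C (-0.19). Acaa2, a thiolase, rose by 0.35 in CSF3R-first against CSF3R-only (edgeR adjusted p = 0.0019), and Decr1, a reductase for unsaturated fatty acids, by 0.79 between the orders (edgeR adjusted p = 3.8e-05).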

How the data were processed

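Per the labels, RNA came from sorted lineage-negative bone marrow, extracted with the RNeasy micro kit and made into libraries with the SMARTer low input kit. The authors sequenced 100 bp single reads, trimmed them with Trimmomatic and aligned them with STAR, with mm10 and DESeq2 named in the submitters' processing notes. The deposited table holds raw whole-number counts per Ensembl gene for all 11 samples. The counting tool, annotation and strand setting are not given in the sources used here, so genes that overlap, antisense ones included, may share reads.

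Members and lists were chosen with earlier results of these data known. Symbols and positions came from GENCODE M21 (GRCm38). In R 4.3.3, edgeR 4.0.16 was run with TMM factors and filterByExpr, in 1 quasi-likelihood fit of the 3 groups without covariates, with Benjamini-Hochberg adjustment over 15703 genes. A call is an adjusted p under 0.05, and a call with a doubling also needs an absolute log2 fold change of at least 1. Log2 CPM used a prior count of 2, and 95% intervals used the t distribution with 8 residual degrees of freedom. Near-identical sequence (at least 100 bp at 97% identity) was searched with BLAST 2.17.0, and levels per kb used the union of exons. All members were accounted for by role. Values in every library were printed for members with a call and a doubling, for SREBP control and for the exporters, and, chosen after their values were seen, for Fdft1, Scd1 and Scd2. From each further list, up to 3 genes with the largest called change per comparison were named, apart from 1 that is not reported here. Alternatives were DESeq2 1.42.0, RLE and total count scaling, no filter and a filter of 10 counts in every sample, the compared groups only, a replicate block, the doubling rule and each sample left out. On simulated counts for CEBPA-first against CSF3R-only (15703 genes, 200 changed), edgeR recovered 195 with 12 false calls and DESeq2 196 with 36. In the data, 5561 genes were called higher and 5753 lower in that comparison. Recovery with so many genes changed, or by the size of the fold change, was not tested. Figures used matplotlib 3.10.9.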

Additional observations from a re-analysis of the deposited data

Results flagged for a closer look

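In groups of 4, a library was marked where its gap to the nearest other spanned most of the group's range by Dixon's criterion at 95%. Of 70 groups of member levels 7 were marked, where chance marks about 1 in 20, or 3.5. Scd2, the desaturase, was marked in both groups: CSF3R-only A was at 325 CPM, with the others between 389.8 and 400.1, and CEBPA-first D was at 591 CPM, with the others between 778 and 805. Scap in CSF3R-only C was at 50.7 CPM, with the others between 45.8 and 46.3. Acaca in CEBPA-first B was at 36.0 CPM, with the others between 29.7 and 30.8. Elovl5 in CSF3R-only B was at 144 CPM, with the others between 131 and 133. Fads2 in CEBPA-first C was at 72.1 CPM, with the others between 67.6 and 68.2. Lss in CEBPA-first A was at 80.8 CPM, with the others between 82.9 and 83.2, a narrow range.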

How the results depend on the processing

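Of 977 alternative values of the members' fold changes, 862 kept their direction and side of the threshold, 90 kept the direction only and 25 turned sign, and 24 of 876 for genes of the further lists kept the direction only. The 977 cover all 59 called values and 9 of the 46 uncalled ones. Of the 46, total count scaling added 1 call higher in CEBPA-first and 6 in CSF3R-first against CSF3R-only, while other settings that kept all libraries added at most 2 in a comparison and single libraries left out at most 3. The values that turned sign were uncalled and near 0. For Srebf2 in CSF3R-first against CSF3R-only they were -0.01 under the filter of 10 counts and -0.01 with the replicate block, and -0.01 to 0.05 with single libraries left out. For Insig2 they were 0.02 in CEBPA-first and 0.03 in CSF3R-first against CSF3R-only under total count scaling and 0.00 in CSF3R-first without a filter, and with libraries left out -0.13 to 0.01 in CSF3R-first against CSF3R-only and -0.11 to 0.03 between the orders. For Scd1 they were 0.09 in CEBPA-first and 0.01 in CSF3R-first against CSF3R-only under total count scaling, 0.03 in CEBPA-first without a filter and 0.00 between the orders with only the compared groups. With libraries left out, Scd1 lay between -0.24 and 0.11, -0.26 and 0.08, and -0.05 and 0.20 in the 3 comparisons. Requiring a doubling lowered the counts of members higher and lower to 3 and 2 (CEBPA-first against CSF3R-only), 1 and 0 (CSF3R-first against CSF3R-only) and 0 and 1 (between the orders). Between the orders, members called lower numbered 5 under total count scaling and 4 without a filter. With libraries left out, members called lower ranged from 0 to 2 in CSF3R-first against CSF3R-only and from 4 to 9 between the orders, where members called higher ranged from 5 to 14. The cause was not tested. Settings other than leaving out a library ended 2 calls in CEBPA-first against CSF3R-only (Srebf1 and Srebf2), 2 in CSF3R-first against CSF3R-only (Stard4 and Fads2) and 8 between the orders (Mvk, Mvd, Msmo1, Srebf2, Insig1, Acly, Acaca and Elovl5). The labels do not say what the replicate letters share, and the data did not settle whether they pair the samples: 7 of 10 same-letter pairs correlated above 0.1 (-0.107 to 0.362, other pairs -0.341 to 0.384), and 6 of 11 samples correlated best with their own letter. With the replicate block, 18 and 5, 13 and 3, and 12 and 6 members were higher and lower in the 3 comparisons, and the calls of Stard4 (0.19), Mvk (-0.23) and Srebf2 (-0.17) were lost. Lss was gained with the block, as higher in CSF3R-first against CSF3R-only. The number of libraries limits the precision, and Scd1 was the least counted member.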

Other observations

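Other cell type markers moved between the groups as well, and are given as values. Their counts stand beside 35.4% of all genes higher and 36.6% lower in CEBPA-first against CSF3R-only. In CSF3R-first against CSF3R-only 21.6% of all genes were higher and 21.1% lower. The 7 stem and progenitor markers summed to 206 to 276 CPM in CSF3R-only cells, 218 to 316 in CSF3R-first cells and 409 to 456 in CEBPA-first cells, where 5 rose and 2 fell against CSF3R-only. The 7 erythroid markers summed to 188 to 297, 91.2 to 319 and 38.4 to 51.0 CPM, and 6 fell in CEBPA-first against CSF3R-only. The 7 mast cell and basophil markers summed to 1653 to 2548, 1051 to 1302 and 1220.4 to 1651 CPM, and 6 fell in CSF3R-first against CSF3R-only. The 7 lymphoid markers summed to 79.6 to 138, 47.6 to 77.4 and 48.9 to 64.7 CPM, and 3 of them passed the filter on low counts.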
